A study of Mus musculus with 18 samples.

Results

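Genes characteristic of epithelial cells, the keratins Krt7, Krt8, Krt18, Krt19 and Krt14 together with Ivl, Cdh1, Epcam, Dsp and Cldn4, were followed in RNA-seq counts from mouse embryonic fibroblasts (MEFs) carrying oncogenic RAS. These are 10 of the 55401 identifiers in the count table and were chosen by name, as genes raised by RAS in these same libraries. MEFs are primary cultures of connective tissue cells from minced mouse embryos, here from embryos at 13.5 days without head and viscera. The 18 libraries fall into 6 groups of 3. In the S6K1 series, wild-type (WT) cells received an empty retroviral vector (EV) or a vector for HRAS G12V, an activated form of the RAS oncogene, and S6K1 knockout (KO) cells received RAS. The S6K1/S6K2 series paired WT cells with EV or RAS with cells lacking both kinases (double knockout, DKO), which received RAS. Rps6kb1 encodes S6K1 and Rps6kb2 encodes S6K2, kinases of ribosomal protein S6. The S6K1 KO and WT cells came from littermates, whereas the DKO embryos and their WT controls came from different mothers and breedings. Knockout cells with EV were not analysed here, so in cells without the kinases the RAS effect cannot be told apart from the effect of their loss. In bulk RNA, a change in the share of cells of a type and a change in RNA per cell cannot be told apart.

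Keratins form the intermediate filaments of epithelial cells. Each filament pairs a type I keratin (Krt18, Krt19 and Krt14 here) with a type II keratin (Krt7 and Krt8), and Krt8 with Krt18 is the usual pair of simple, single-layered epithelia, while Krt14 marks the basal layer of stratified epithelia. Epithelial cells hold to each other through E-cadherin (Cdh1), through desmosomes that tie keratin filaments to the membrane by desmoplakin (Dsp), and through tight junctions built from claudins such as Cldn4. Epcam is a surface adhesion protein of epithelia, and involucrin (Ivl) is a protein of the cornified envelope of differentiating keratinocytes. Fibroblasts use vimentin (Vim) filaments instead, and the factors of the Snail, Zeb and Twist families are known to repress epithelial genes.

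Krt7 (chr15:101412403-101427806), Krt8 (chr15:101996711-102004342) and Krt18 (chr15:102028216-102032026) lie on chromosome 15 in GRCm38.p6, and Krt19 (chr11:100140810-100145926) and Krt14 (chr11:100203162-100207510) on chromosome 11. RefSeq (GRCm38.p6) gave a window before the start site for 8 of the 10 genes. The letters TGACTCA, a site of AP-1 factors, were found on either strand in 2 of these 8 windows (Ivl and Cldn4), and in 4.46% of all 32851 windows of 250 bases before a start site. The letters CAGGTG, an E-box recognised by Snail and Zeb factors, were found on either strand in 5 of 8 (Krt7, Krt8, Krt18, Epcam and Cldn4) and in 17.2% of all windows. The letters CCGGAAG, of Ets factors, were in 0 of 8 and in 6.91% of all. The windows of Ivl and Cldn4, which hold the AP-1 letters, and of the filament partners Krt18 and Krt8 are printed 5′ to 3′ along the gene's strand. Capitals mark matches to the AP-1 letters and to the E-box letters or their reverse complement, and draw attention to letters only, not to bound sites.
Ivl (chr3:92573736-92573985, minus strand): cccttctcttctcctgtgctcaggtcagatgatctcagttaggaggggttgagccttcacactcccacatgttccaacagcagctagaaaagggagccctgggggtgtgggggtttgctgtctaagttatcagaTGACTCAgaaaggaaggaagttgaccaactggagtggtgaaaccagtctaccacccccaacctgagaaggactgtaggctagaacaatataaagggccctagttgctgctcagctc
Cldn4 (chr5:134946935-134947184, minus strand): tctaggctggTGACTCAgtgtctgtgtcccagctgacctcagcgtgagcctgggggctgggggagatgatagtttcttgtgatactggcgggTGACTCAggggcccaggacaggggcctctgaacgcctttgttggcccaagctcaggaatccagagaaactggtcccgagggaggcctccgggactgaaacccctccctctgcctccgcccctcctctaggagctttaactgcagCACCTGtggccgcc
Krt18 (chr15:102027966-102028215, plus strand): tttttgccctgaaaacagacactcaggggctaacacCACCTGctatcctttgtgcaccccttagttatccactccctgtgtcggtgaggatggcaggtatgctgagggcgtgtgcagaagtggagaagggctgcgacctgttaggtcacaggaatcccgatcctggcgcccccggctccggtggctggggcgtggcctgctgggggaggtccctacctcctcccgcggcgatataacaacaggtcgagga
Krt8 (chr15:102004343-102004592, minus strand): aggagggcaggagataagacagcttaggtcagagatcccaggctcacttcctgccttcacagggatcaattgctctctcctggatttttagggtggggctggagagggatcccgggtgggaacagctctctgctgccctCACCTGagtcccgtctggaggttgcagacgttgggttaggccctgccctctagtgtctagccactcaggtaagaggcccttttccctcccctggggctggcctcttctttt
The single AP-1 match of Ivl lay at -116 to -110 from the start site. The matches of Cldn4 lay at -240 to -234 and at -158 to -152. The E-box match lay at -214 to -209 in Krt18 and at -111 to -106 in Krt8.

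Libraries held 8319445 to 14402442 counts. Rps6kb1 was at 69.0 ± 6.74 counts-per-million (CPM, mean ± SD, n = 3) in WT RAS and 30.6 ± 6.75 in KO RAS, and at 80.6 ± 4.45 and 37.5 ± 2.7 in WT RAS and DKO RAS of the other series, so RNA of the gene was still counted in knockout cells. Rps6kb2 was at 25.8 ± 2.68 CPM in WT RAS and at 2.84 ± 0.186 in DKO RAS of the S6K1/S6K2 series. Hras, listed as Hras1, stood at 61.8 ± 10.9 CPM in WT EV and 118 ± 2.35 CPM in WT RAS of the S6K1 series, and at 58.9 ± 7.56 and 99.0 ± 6.76 CPM in the other. Whether reads of the vector's HRAS were counted under it is not known.

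By the direction of group means alone, 8 of the 10 genes followed the label under which they were grouped. In both series Krt8, Krt18, Krt19, Ivl, Epcam, Dsp and Cldn4 had a higher mean in WT RAS than in WT EV, and so did Cdh1. Cdh1 did not exceed 1.31 CPM in any library, and its groups overlapped in the S6K1 series. Its ratio of summed counts there was 1.278 (95% exact counting interval 0.6545 to 2.529), so a rise of Cdh1 is not shown in that series. Krt7 had a lower mean in the S6K1 series and a higher one in the S6K1/S6K2 series, and Krt14 was at or near a count of 0 throughout. Krt14 and Cdh1 had too few counts to be tested, so 8 of the 10 entered the fits. Because the genes were selected on the RAS response in these libraries, their RAS values are given as a description with no test.

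**Figure D1:**
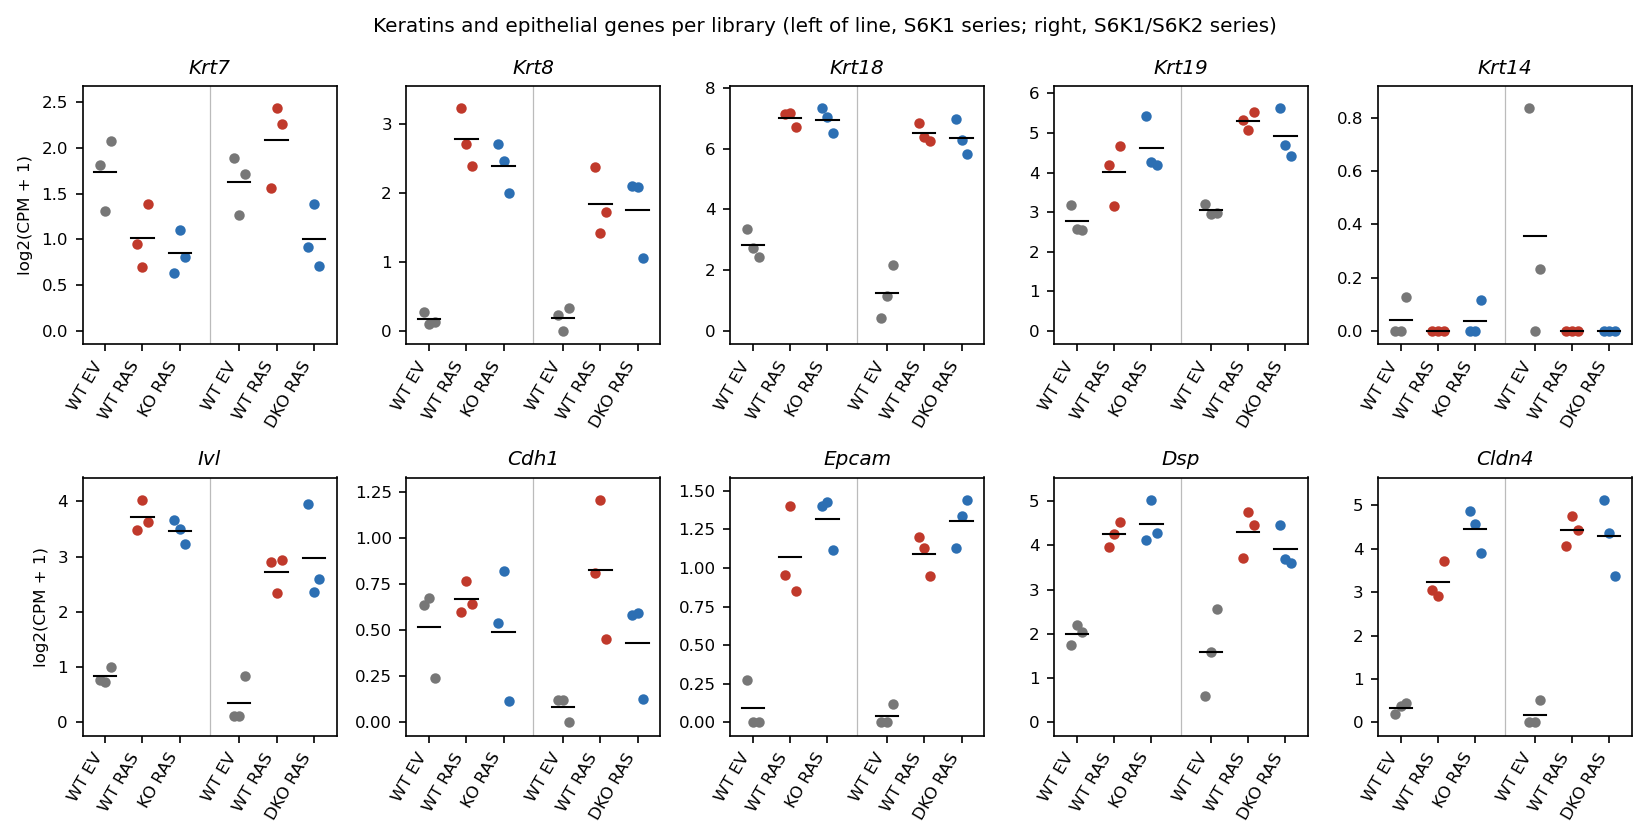
Level of each of the 10 genes in every library, as log2(CPM + 1). Points are libraries, black lines are means of 3, grey is WT EV, red is WT RAS and blue is KO RAS or DKO RAS; the vertical line parts the S6K1 series (left) from the S6K1/S6K2 series (right), and each panel has its own axis. WT EV lies below both RAS groups for Krt8, Krt18, Ivl, Epcam, Dsp and Cldn4, while Krt7 and Krt14 show no such step.

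Krt18, the type I partner of the simple epithelial pair, was the most abundant of the 5 keratins per length in all RAS libraries. Its level was 9.12, 5.59 and 4.40 CPM in the WT EV libraries of the S6K1 series and 140, 142 and 103 CPM in WT RAS. Across the S6K1/S6K2 series it was 0.349, 1.24 and 3.50 CPM in WT EV and 114, 82.8 and 75.5 CPM in WT RAS. The groups did not overlap in either series. The log2 fold change with RAS was 4.32 (SE 0.319) and 5.73 (SE 0.564) respectively. KO RAS libraries were at 159, 129 and 90.1 CPM and DKO RAS libraries at 123, 76.8 and 55.8 CPM, spanning the WT RAS values of their series.

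Krt8, the type II partner, followed at a lower level. In the S6K1 series it had 3, 1 and 1 counts in WT EV and 98, 71 and 53 in WT RAS, or 8.37, 5.53 and 4.26 CPM in the latter. The S6K1/S6K2 series gave 2, 0 and 3 counts in WT EV and 39, 14 and 25 in WT RAS. No WT EV library reached the lowest RAS library. The log2 fold change was 5.45 (SE 0.494) and 4.12 (SE 0.775). Its level has a further limit, in that 54.5% of the 50-base windows of its transcript are found base for base at another place in the mouse genome (NCBIM37), and how the counting treated such reads was not tested. The share was 0.74% for Krt18 and 14.37% for Krt14, and 0 for Krt19, Cdh1, Epcam, Dsp and Cldn4.

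Krt19, a type I keratin of ducts and other simple epithelia, was already present with EV. WT EV libraries held 8.14, 4.99 and 4.86 CPM in the S6K1 series and 8.3, 6.72 and 6.90 CPM in the S6K1/S6K2 series. WT RAS libraries held 17.4, 7.94 and 24.7 CPM and 38.9, 32.5 and 45.4 CPM. In the S6K1 series WT RAS replicate 2 lay just under the highest EV library, so the groups overlapped, and in the other series they did not. By replicate number, each WT RAS library lay above its WT EV library in both series. The log2 fold change was 1.47 (SE 0.476) and 2.41 (SE 0.308).

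Krt7, another simple epithelial type II keratin, did not share this pattern. It stood at 2.51, 1.49 and 3.21 CPM in WT EV and 0.939, 0.623 and 1.61 CPM in WT RAS of the S6K1 series, a log2 fold change of -1.17 (SE 0.446). In the S6K1/S6K2 series it stood at 2.71, 1.42 and 2.27 CPM in WT EV and 1.95, 4.41 and 3.8 CPM in WT RAS, a log2 fold change of 0.66 (SE 0.444). The EV and RAS groups overlapped in both series. By replicate number, each WT RAS library of the S6K1 series lay below its WT EV library. In the S6K1/S6K2 series replicate 1 was lower with RAS, and replicates 2 and 3 were higher.

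Krt14 gave 0, 0 and 1 counts in WT EV of the S6K1 series and 9, 0 and 2 in WT EV of the S6K1/S6K2 series. It had 0 counts in all 6 WT RAS libraries and in all 3 DKO RAS libraries, and 0, 0 and 1 in KO RAS. The basal keratin was therefore not detectable with RAS at this depth, where 3 counts are the limit that a count of 0 allows in a library, and the highest values were in EV libraries.

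Per kilobase of transcript, the sum of the 5 keratins was 106 ± 12.4 CPM per kb in WT RAS of the S6K1 series, beside 9.03 ± 2.94 in WT EV and 109 ± 33.2 in KO RAS. It was 6.64 ± 1.098, 91.8 ± 14.8 and 82.5 ± 34.6 CPM per kb in WT EV, WT RAS and DKO RAS (S6K1/S6K2 series). The composition moved toward Krt18. Krt18 made up 44.2% to 52.8% of the sum in WT EV libraries and 80.0% to 92.5% in WT RAS libraries of the S6K1 series, and 3.71% to 32.5% against 63.5% to 74.7% in the other. Among these 5, type I exceeded type II by 22.8 to 33.2 times in WT RAS libraries of the S6K1 series and by 37.4 to 39.9 times in the S6K1/S6K2 series. In WT EV this was 7.53 to 17.7 and 7.88 to 14.9 times, all with the limit on Krt8 given above. Krt20, a type I keratin outside this sum, was at 8.96 ± 1.71 and 4.63 ± 3.42 CPM per kb in WT RAS. The 5 keratins remained a small part beside vimentin. They were at 0.418% to 0.566% of its level per length in WT EV and 4.07% to 5.12% in WT RAS (S6K1 series), and 0.263% to 0.407% and 3.71% to 3.93% in the S6K1/S6K2 series.

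Of the 45 other keratins with an identifier, 21 had no count in any library and 39 had at most 3 counts in every library. Those with a group mean of at least 1 CPM were Krt10, Krt15, Krt20 and Krt80. Krt20, a type I keratin of intestinal and urothelial surface cells, was the only one of them that passed the test with RAS. It went from 7.66, 7.23 and 3.21 CPM in WT EV to 16.6, 20.9 and 14.38 CPM in WT RAS of the S6K1 series (a log2 change of 1.51, SE 0.361, adjusted p = 0.0241), and from 0.349, 0.354 and 1.66 to 16.5, 5.24 and 5.0 CPM in the other (3.48, SE 0.722, adjusted p = 0.00760). Krt10, a keratin of the upper epidermis, had values of 0.06 (SE 0.489) and -1.09 (SE 0.416), and did not pass in either series. Krt80 had -1.04 (SE 0.370, adjusted p = 0.101) in the S6K1 series, where it passed with the replicate block (-1.03, adjusted p = 0.0410, edgeR), and Krt15 reached 1 CPM through WT EV of the S6K1/S6K2 series, where replicate 1 held 4.02 CPM and the others 0.884 and 0.175.

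Among the adhesion genes, Cldn4 showed the widest step. Its libraries held 2, 4 and 4 counts in WT EV and 85, 83 and 152 in WT RAS of the S6K1 series. The S6K1/S6K2 libraries held 0, 0 and 5 counts in WT EV and 146, 218 and 222 in WT RAS. The groups lay far apart, with a ratio of summed counts of 33.5 (95% exact counting interval 18 to 70.5) and 141 (60 to 436). This interval covers counting error only, as do all those given here. The log2 fold change was 5.0 (SE 0.475) and 7.04 (SE 0.804).

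Epcam was near the floor without RAS and low with it. It had 3, 0 and 0 counts in WT EV and 11, 21 and 10 in WT RAS of the S6K1 series, a ratio of 14.6 (4.68 to 73.8). It had 0, 0 and 1 counts in WT EV and 12, 10 and 10 in WT RAS of the other series, a ratio of 38.5 (6.43 to 1567). A single EV count stands behind the second ratio, hence its wide interval.

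Dsp, the desmosomal link to keratin filaments, had 2.37, 3.58 and 3.12 CPM in WT EV and 14.6, 18.2 and 22.0 CPM in WT RAS of the S6K1 series. It had 0.524, 2.03 and 4.90 CPM in WT EV and 12.2, 26.2 and 20.9 CPM in WT RAS of the S6K1/S6K2 series. The RAS libraries lay above the EV libraries in both, with log2 fold changes of 2.60 (SE 0.303) and 2.99 (SE 0.605). WT EV replicate 1 of the S6K1/S6K2 series was the lowest EV library of that series for Dsp and Krt18, and replicate 3 was the highest for Dsp, Krt18 and Ivl.

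Cdh1 was the exception among the adhesion genes. It had 8, 8 and 2 counts in WT EV and 6, 9 and 7 in WT RAS of the S6K1 series, and the groups overlapped. For the S6K1/S6K2 series the counts were 1, 1 and 0 in WT EV and 7, 11 and 4 in WT RAS, with no overlap. The ratio of summed counts was 1.278 (0.654 to 2.53) in the first and 13.2 (3.25 to 116) in the second. Per length, the WT RAS level of E-cadherin mRNA was 0.134 ± 0.0221 CPM per kb in the S6K1 series beside 1.92 ± 0.389 for Dsp.

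Ivl, the cornified envelope gene, had 0.696, 0.671 and 1.01 CPM in WT EV and 10.2, 15.3 and 11.4 CPM in WT RAS of the S6K1 series. It had 1, 1 and 9 counts in WT EV and 60, 34 and 72 in WT RAS of the S6K1/S6K2 series, or 6.48, 4.05 and 6.67 CPM in the latter. The groups did not overlap. The log2 fold changes of 3.96 (SE 0.272) and 4.11 (SE 0.772) were close to each other in size.

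Counting genes whose RAS libraries all lay above all EV libraries, 6 of the 8 tested genes met this in WT RAS of the S6K1 series, where 15.9% of 14036 tested genes did. For the S6K1/S6K2 series 7 of 8 met it, beside 20.9% of 13881. These counts rest on the contrast by which the genes were chosen. Cells without the kinases, set against the same EV libraries, gave 7 of 8 in KO RAS against WT EV (17.8% of all tested genes) and 7 of 8 in DKO RAS against WT EV (21.5%). As the choice of genes used these EV libraries, the KO and DKO counts are a description too and not independent of it.

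**Figure D2:**
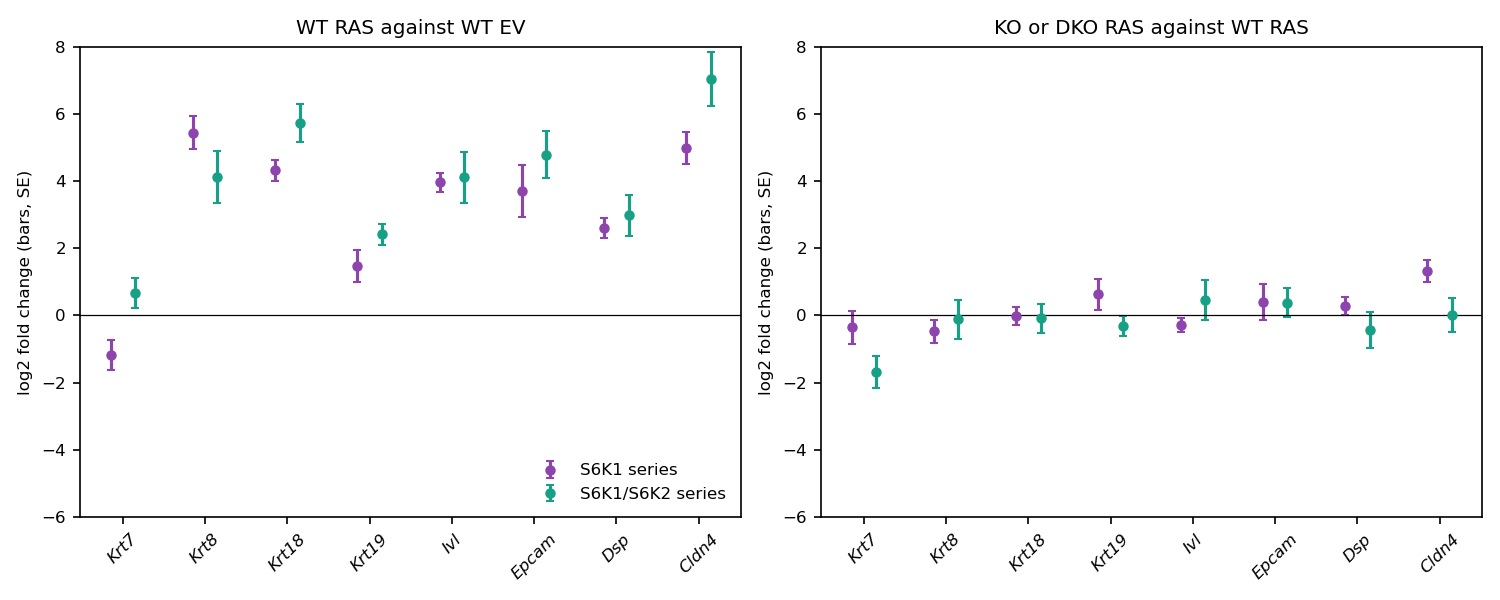
Log2 fold changes of the 8 tested genes from edgeR, with bars of 1 SE, for WT RAS against WT EV (left) and for KO or DKO RAS against WT RAS (right), in the S6K1 series (purple) and the S6K1/S6K2 series (green). Values on the left reach 7.04 for Cldn4, and those on the right lie between -1.69 (Krt7, S6K1/S6K2 series) and 1.32 (Cldn4, S6K1 series).

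To see whether the S6 kinases bear on these levels, RAS cells with and without them were compared, a contrast the choice of genes did not use, although it shares the WT RAS libraries with it. None of the 8 tested genes passed at an adjusted p under 0.05 in KO RAS against WT RAS (edgeR's quasi-likelihood test, Benjamini-Hochberg adjustment over 14036 genes), where 0.00712% of all genes did. At an unadjusted p under 0.05 there was 1 of 8, beside 6.86% of all genes, and DESeq2 called 1 of 8, beside 0.65%. In DKO RAS against WT RAS 0 of 8 passed, beside 0.0216% of all genes. There 1 of 8 had an unadjusted p under 0.05, beside 1.29% of all genes, and DESeq2 called 0, beside 0.0367%.

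Cldn4 was that gene in the S6K1 series. It was at 7.26, 6.46 and 12.2 CPM in WT RAS and at 28.4, 22.8 and 13.8 CPM in KO RAS, so that all KO libraries were above all WT libraries. The log2 fold change was 1.32 (SE 0.326), with an adjusted p of 0.587. With the replicate number as a block, the log2 fold change was 1.31 with an adjusted p of 0.0400 (edgeR), and 0.549% of all genes were then called higher. The KO and WT cells came from littermates, but the labels do not state that equal numbers mark littermates. Over all alternatives tried the adjusted p ran from 0.0400 to 1. Within same-numbered pairs KO RAS was 3.91, 3.52 and 1.13 times WT RAS. Libraries of the S6K1/S6K2 series ran from 15.8 to 26.0 CPM in WT RAS and from 9.30 to 33.9 CPM in DKO RAS, and the log2 fold change was 0.01 (SE 0.494).

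Krt7 was the gene with an unadjusted p under 0.05 in the S6K1/S6K2 series. Its libraries were at 1.95, 4.41 and 3.8 CPM in WT RAS and at 0.892, 1.62 and 0.632 CPM in DKO RAS, without overlap. The log2 fold change was -1.69 (SE 0.473), with an adjusted p of 0.9999 (edgeR). In the S6K1 series it was -0.36 (SE 0.483).

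The other 6 genes had log2 fold changes between -0.47 (Krt8) and 0.63 (Krt19) in KO RAS against WT RAS, and between -0.43 (Dsp) and 0.46 (Ivl) in DKO RAS against WT RAS. Krt18, the gene with the most counts, had -0.03 (SE 0.270) and -0.09 (SE 0.421). The SEs of Ivl, Epcam and Krt8 in the S6K1/S6K2 series were 0.593, 0.437 and 0.576, so changes of that size lie within the error of these estimates. DKO RAS replicate 1 held the highest level of its group for Krt18, Krt19, Ivl, Dsp and Cldn4.

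The difference between the loss effects of the series was tested over all 18 libraries. Of the 8 genes 0 passed (edgeR), beside 0.0069% of 14483 genes. None had an unadjusted p under 0.05, where 1.23% of all genes did, the lowest being 0.0631 for Cldn4 (-1.29, SE 0.643, S6K1/S6K2 minus S6K1 series).

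The other genes of epithelial cells were read from lists of keratins, desmosome, tight junction, hemidesmosome, cornified envelope, surface and regulatory genes. The lists were compiled for this work with earlier results of these data known, so their counts with RAS are a description and no independent support. Of 143 list genes with an identifier, 45 were tested in each series. With RAS, 21 rose and 1 fell in the S6K1 series, where 7.15% of all tested genes rose and 6.09% fell. As for the S6K1/S6K2 series, 30 rose and 1 fell, beside 13.5% and 12.7%. The median log2 fold change over the 45 was 0.98 and 1.51, beside 0.00 and -0.02 over all tested genes. Some of the 45 passed the filter on low counts only through their RAS libraries. Summed WT EV counts in the 2 series were 0 and 0 for Tfap2c, 3 and 1 for Cldn3, and 3 and 2 for Lamb3. For such genes a fall with RAS could hardly have been called, so these counts and medians favour rises. Of the genes that rose, 19 did so in both series, which is 90.5% of the first set and 63.3% of the second. The like shares over all tested genes were not computed, so whether this overlap is particular to epithelial genes was not tested. The other list genes did not pass the filter on low counts. In the S6K1/S6K2 series this left out Cldn19, a claudin, with 50, 30 and 7 counts in WT EV and 0 in all WT RAS libraries, and Krt15, with 46, 10 and 2 counts in WT EV and 2, 0 and 6 in WT RAS.

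**Figure D3:**
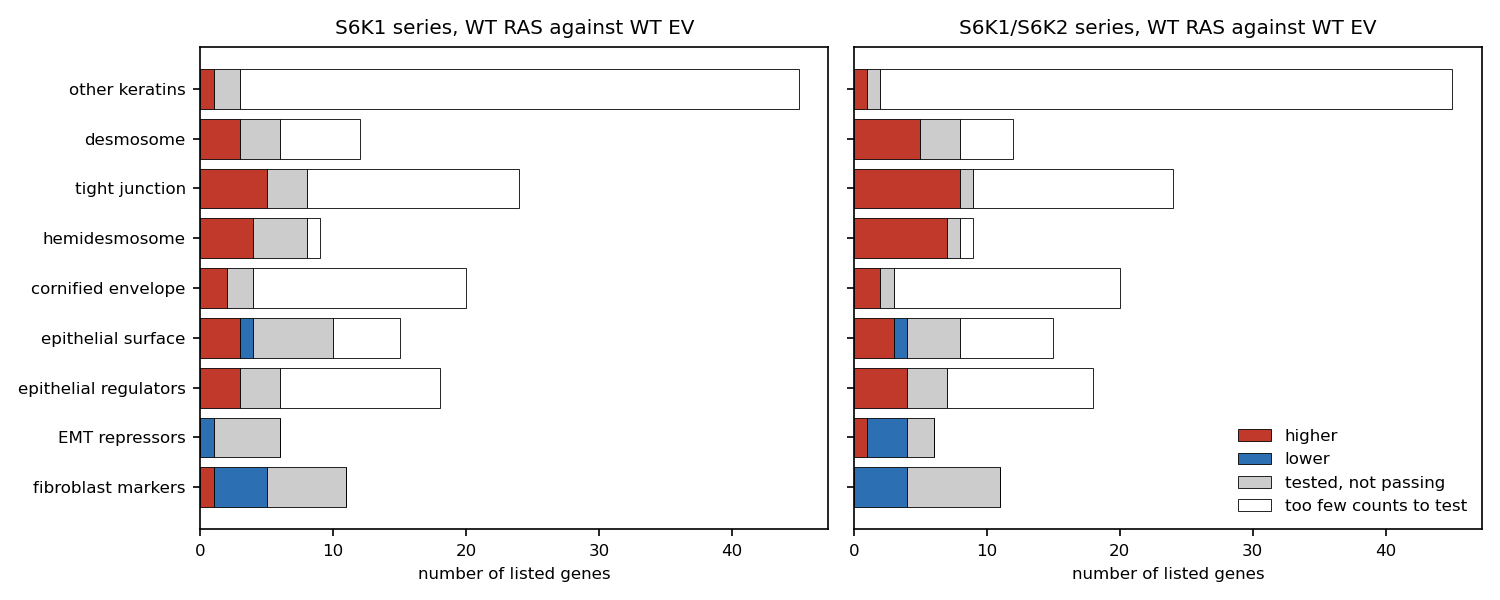
Number of list genes that were higher, lower or not past an adjusted p of 0.05 in WT RAS against WT EV, or had too few counts to test, in the S6K1 series (left) and the S6K1/S6K2 series (right). Tight junction genes rose in 5 of 8 and 8 of 9 tested, while 42 of 45 other keratins in the S6K1 series had too few counts.

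Desmosome genes rose in 3 of 6 tested in the S6K1 series and 5 of 8 in the S6K1/S6K2 series. The desmosomal cadherins Dsg2 and Dsc2 and the desmosome-associated Perp rose in both. Dsg2 went from 3 counts summed over the WT EV libraries to 60 in WT RAS of the S6K1 series, a ratio of 20.9 (6.82 to 104). Perp had log2 fold changes of 2.13 (SE 0.4997) and 1.61 (SE 0.224). Dsg3 and Pkp2 rose in the S6K1/S6K2 series, by 3.39 (SE 1.102) and 1.99 (SE 0.352).

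Tight junction genes rose in 5 of 8 and 8 of 9. Cldn3, a claudin like Cldn4, went from 3 to 43 summed counts in the S6K1 series (ratio 15, 4.80 to 75.5) and from 1 to 34 in the other (40.9, 6.86 to 1662). Cgnl1, a junctional scaffold protein, had 1.86 (SE 0.325) and 2.71 (SE 0.293). Cldn23 rose in the S6K1/S6K2 series from 2 to 47 summed counts. Other members of this list with a rise in both series were Cldn1, Cldn12 and F11r.

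Hemidesmosome genes, which anchor epithelia to the basement membrane, rose in 4 of 8 and 7 of 8. Itga6, the α6 integrin, was at 64.4, 74.6 and 36.7 CPM in WT EV and 219, 258 and 309 CPM in WT RAS of the S6K1 series, and at 35.7, 19.1 and 24.3 CPM and 318, 409 and 303 CPM in the other. Its partner Itgb4 had log2 fold changes of 1.41 (SE 0.329) and 2.10 (SE 0.372). Lamb3, a chain of laminin-332, rose from 3 to 50 and from 2 to 32 summed counts.

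Cornified envelope genes, the company of Ivl, rose in 2 of 4 and 2 of 3. Sprr1a, a cross-linked precursor like involucrin, was at 0.766, 0.596 and 0.275 CPM in WT EV and 20.5, 26.9 and 12.5 CPM in WT RAS of the S6K1 series (log2 fold change 5.13, SE 0.458), and had 2.56 (SE 0.690) in the other. Lor, loricrin, rose in the S6K1 series by 2.14 (SE 0.401) and Sbsn in the S6K1/S6K2 series by 1.16 (SE 0.337). Of the 20 with an identifier, 10 had at most 3 counts in every library.

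Surface genes rose in 3 of 10 and 3 of 8, and 1 fell in each. The serine protease St14 (matriptase) and its inhibitor Spint2 rose in both series, with 1.53 (SE 0.207) and 2.30 (SE 0.374) for St14. Spint1, another inhibitor of matriptase, rose by 3.36 (SE 0.840) in the S6K1 series, and the adhesion molecule Ceacam1 by 3.53 (SE 0.558) in the S6K1/S6K2 series. Cdh3, P-cadherin, was the gene that fell, by 1.94 (SE 0.236, adjusted p = 0.00106, edgeR) on the log2 scale in the S6K1 series, and its log2 change was -1.38 (SE 0.348, adjusted p = 0.0174) in the other. It ran from 165 to 248 CPM in WT EV and from 43.7 to 63.7 CPM in WT RAS of the S6K1 series.

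Among regulators of epithelial genes, 3 of 6 rose in the S6K1 series and 4 of 7 in the S6K1/S6K2 series. Tfap2c, an AP-2 transcription factor of the trophoblast and skin, had 0 counts in all 6 WT EV libraries. It was at 2.39, 5.37 and 2.17 CPM in WT RAS of the S6K1 series, at least 43.2-fold higher against a floor of 3 counts over the group, and at 1.84, 2.26 and 2.41 CPM in the other, at least 24.9-fold higher. Klf5, a factor of proliferating epithelia, had log2 fold changes of 1.20 (SE 0.338) and 1.51 (SE 0.447). Gata3 rose in the S6K1/S6K2 series by 1.02 (SE 0.271). Grhl2, Ovol1, Ovol2, Elf3, Elf5, Ehf, Esrp1 and Cdx2, further epithelial regulators, had at most 3 counts in every library.

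Of the 6 repressors of epithelial genes, Snai1 fell in both series, by 0.68 (SE 0.151, adjusted p = 0.0179) and 1.17 (SE 0.207, adjusted p = 0.00367) on the log2 scale (edgeR). Snai2 fell by 1.17 (SE 0.233) and Twist1 by 0.98 (SE 0.146) in the S6K1/S6K2 series. In the S6K1 series Snai2 had -0.36 (SE 0.212) and Twist1 -0.72 (SE 0.220), which did not pass. Twist2 had 1.00 (SE 0.430, adjusted p = 0.175) in the S6K1 series and rose by 0.80 (SE 0.262, adjusted p = 0.0488, edgeR) in the other. Zeb1 had -0.31 (SE 0.200) and 0.24 (SE 0.168), and Zeb2 -0.34 (SE 0.184) and 0.11 (SE 0.212), none past the threshold. With the replicate number as a block, which joins WT EV and WT RAS libraries of the same number, all 6 passed in the S6K1 series (edgeR). Of these 5 were lower and Twist2 was higher, with log2 fold changes from -0.71 (Twist1) to 0.97 (Twist2). In this fit 18.1% of all genes were called lower. Snai1 remained at 20.3 to 25.5 CPM in WT RAS of the S6K1 series, after 32.9 to 44.0 in WT EV.

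**Figure D4:**
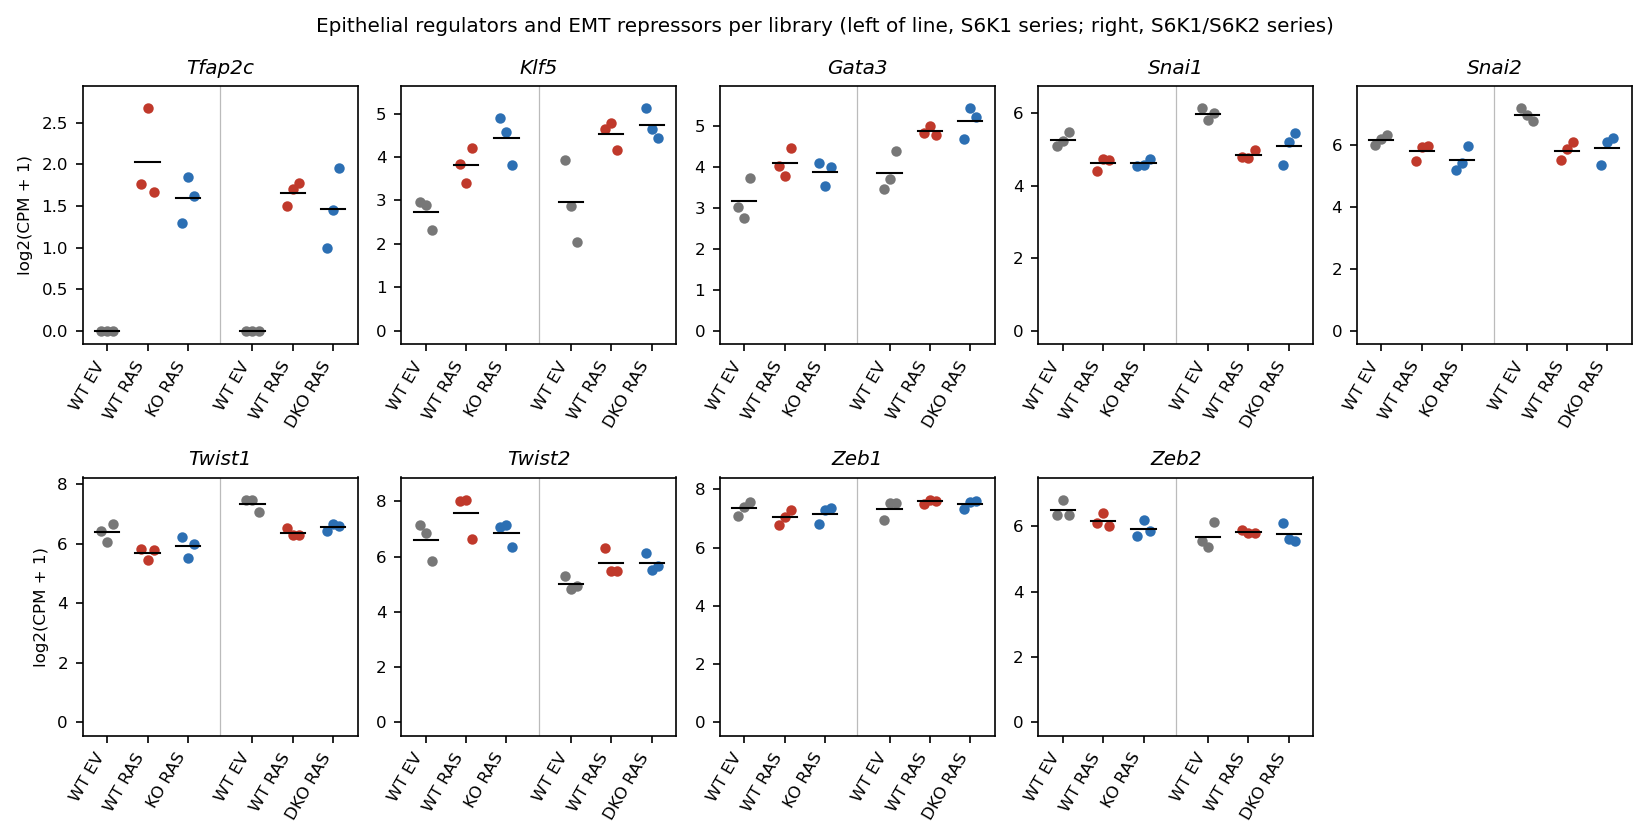
Level of regulators of epithelial genes (Tfap2c, Klf5, Gata3) and of repressors (Snai1, Snai2, Twist1, Twist2, Zeb1, Zeb2) in every library, as log2(CPM + 1), drawn as in the plot of the 10 genes. Tfap2c is at 0 in all 6 WT EV libraries and above 0 in all RAS libraries, while Snai1 lies lower in WT RAS than in WT EV in both series.

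In the loss contrasts 0 of the 45 epithelial list genes passed in either series (edgeR), with 5 and 2 at an unadjusted p under 0.05, beside 6.86% and 1.29% of all genes, and 0 by DESeq2, beside 0.65% and 0.0367%. With the replicate block F11r was called higher in the S6K1 series (0.37, adjusted p = 0.0386, edgeR), beside 0.549% of all genes. The median log2 fold change of the 45 was 0.27 in KO RAS against WT RAS and -0.00 in DKO RAS against WT RAS, beside 0.03 and -0.00 over all tested genes. Of the 6 repressors 0 passed in either loss contrast (edgeR). With the block Twist2 was called lower in KO RAS (-0.72, adjusted p = 0.0116, edgeR), beside 3.61% of all genes.

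The cultures were checked for other cell types, whose part in the values above was not tested. Of 11 fibroblast markers, Col1a1, Col1a2, Col3a1 and Pdgfrb fell with RAS in both series, Lum rose in the S6K1 series, and none was at 0 in any group. With the replicate block 3 of the 11 were called higher in the S6K1 series (Dcn, Lum and Vim) and 5 lower. In that fit 18.1% of all genes were called higher and 18.1% lower. For the S6K1/S6K2 series the block called 0 of the 11 higher and 6 lower, beside 13.7% of all genes called lower. Lum, higher in the S6K1 series, was among these 6 (-1.77, adjusted p = 0.0227, edgeR), as was S100a4. The summed level of all 11 markers went from 30670 to 33730 CPM in WT EV to 15520 to 16280 in WT RAS (S6K1 series), and from 30810 to 49090 to 13940 to 18850 in the other. Keratinocyte markers summed to at most 8.12 CPM in any library, with Krt1 or Krt5 at 0 in 5 of the 6 groups. Of the 6 markers, 1 was tested in the S6K1 series and was not called, and 3 were tested in the S6K1/S6K2 series. There Dsg3 was called higher with RAS, beside 13.5% of all tested genes. Krt10 (-1.09, SE 0.416) and Trp63 (-1.36, SE 0.990) were lower with RAS in that series and did not pass. Krt15, not tested, had 58 summed counts in its WT EV and 8 in its WT RAS.

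Mesothelial cells line body cavities and make keratins. Of 7 of their markers, Bnc1 rose in the S6K1 series (2.72, SE 0.445). In the S6K1/S6K2 series Msln rose (3.18, SE 0.361) while Gpm6a and Lrrn4 fell. The sum was 26.4 to 89.9 CPM in WT EV, 51.3 to 112 CPM in WT RAS and 102 to 169 CPM in KO RAS (S6K1 series), and 40.0 to 51.0, 153 to 253 and 167 to 248 CPM in the other. Msln, mesothelin, made up the largest part of the sum in each RAS library. Its group means for EV, RAS and KO RAS were 13.2, 54.2 and 116 CPM (S6K1 series), and those for EV, RAS and DKO RAS 21.7, 197 and 201 CPM. Upk3b and Upk1b, by contrast, had means of 11.6 CPM in WT EV against 2.20 and 3.55 CPM in WT RAS (S6K1 series), and Lrrn4 had 5.24 against 0.637 CPM. The median log2 fold change of the 6 tested markers was -1.40 and -1.48. With the replicate block Bnc1 and Msln were called higher with RAS in the S6K1 series, and Wt1, Lrrn4, Upk3b and Upk1b lower. In KO RAS against WT RAS the block called Bnc1 lower (-0.90, adjusted p = 0.0359, edgeR), beside 3.61% of all genes. No mesothelial marker was at 0 in any group. Of 5 endothelial markers Cdh5 rose in both series, from 3 to 103 and from 1 to 77 summed counts, and Tek fell in the S6K1/S6K2 series and, with the replicate block, in the S6K1 series, as did Emcn. The block also called Tek higher in KO RAS against WT RAS of the S6K1 series (1.59, adjusted p = 0.0463, edgeR), beside 0.549% of all genes. The sum of the endothelial markers stayed between 7.71 and 13.6 CPM in all libraries.

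Macrophage markers varied most between libraries. The 6 genes summed to 418 to 2088 CPM in WT EV, 514 to 2417 CPM in WT RAS and 182 to 596 CPM in KO RAS (S6K1 series). They summed to 109 to 926, 147 to 700 and 61.1 to 166 CPM in the other. None of the 6 passed with RAS or with the loss of the kinases in either series (edgeR and DESeq2), with 6 of 6 at an unadjusted p under 0.05 in KO RAS against WT RAS and 2 of 6 in DKO RAS against WT RAS, and median log2 fold changes of -2.10 and -1.96. In the S6K1 series the sum went from 2417 to 596, from 2266 to 508 and from 514 to 182 CPM between same-numbered WT RAS and KO RAS libraries, lower in 3 of 3 pairs. With the replicate block all 6 passed as lower in KO RAS (edgeR), with log2 fold changes from -2.74 (Fcgr1, adjusted p = 4.407e-05) to -1.75 (Cd68, adjusted p = 0.000233), where 3.61% of all genes were called lower. In DKO RAS against WT RAS the block called Lyz2 lower (-1.95, adjusted p = 0.0396, edgeR), beside 0.0576% of all genes. With RAS the block called Fcgr1 and Lyz2 higher in the S6K1 series and Csf1r lower in the S6K1/S6K2 series. The macrophage markers were thus lower in the KO RAS libraries, in which Cldn4 was called higher with the block, and their part in that value was not tested. The mesothelial marker Msln was at 50.1, 24.2 and 88.3 CPM in WT RAS and at 159, 110 and 78.7 CPM in KO RAS of that series. The block did not call it in this contrast, and its part was not tested either.

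Among all genes tested in both series, those whose levels most resembled the mean of Krt7, Krt8, Krt18 and Krt19 over the 9 libraries of a series were Serpinb2, ENSMUSG00000117764, for which no symbol was found, Stom, Ccbe1 and Tm4sf1. The measure was Pearson's r of log2(CPM + 1), and the mean of the r of both series was 0.982, 0.982, 0.981, 0.981 and 0.980. These libraries form EV and RAS clusters, so the values describe a common step between clusters.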

How the data were processed

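Poly(A) RNA of 18 MEF libraries was sequenced as single-end reads from stranded libraries, and the authors deposited raw read counts per gene. The methods of the study name TopHat, the mm9 genome and HTSeq, whereas the submitters' processing notes name STAR 2.7.1a, mm10 and DESeq2 1.28.1, so the build behind the counts is not settled. Symbols, matched by identifier to the annotation and to RefSeq, were found for 32589 of 55401 identifiers, with 99.1% of counts. RefSeq promoter windows (GRCm38.p6) describe the genes, not the counting. The genes and lists were chosen with earlier results of these data known.

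Each series was fitted alone over 9 libraries in edgeR 4.0.16 (R 4.3.3), with group as the only term, filterByExpr (minimum count 10), TMM and quasi-likelihood tests (two-sided, Benjamini-Hochberg adjusted, threshold 0.05). A fit over all 18 libraries gave the difference of loss effects, where a batch cannot be told apart from series. CPM are scaled within a series. Per-length levels used the transcript with the longest coding sequence. Ratios of summed counts have exact 95% intervals, which cover counting error only, since reads carry no molecular identifiers, and 3 counts were taken as the floor. Total counts of 8319445 to 14402442 put 3 counts at about 0.2 to 0.4 CPM. The scripts were tested on simulated data.

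Same-numbered libraries were checked for pairing by correlating their deviations from group means. The correlations were 0.684, 0.444 and 0.668 for RAS and 0.692, 0.393 and 0.616 for loss in the S6K1 series, and 0.366, 0.293 and 0.308 for RAS in the S6K1/S6K2 series. Whether equal numbers mark littermates in the S6K1 series is not stated. Separate cultures are described for the libraries, and replicate pairs differed by a chi-square of at least 8.62 per degree of freedom. Genes named are the 10, up to 3 called genes per list and comparison with the largest change, keratins with a group mean of at least 1 CPM, the repressors, 3 label checks and 5 genes of like pattern. Cldn12, Cldn19, Gata3, Krt15, Lum, Trp63, the regulators at the floor and cell type markers called only with the replicate block, or named with means, were added after their values were seen. One called gene of the lists is counted but not reported here by name. Alternatives were the replicate block, DESeq2 1.42.0, its size factors, no filter and leaving out each library.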

Additional observations from a re-analysis of the deposited data

How the results depend on the processing

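Alternatives were the replicate block, DESeq2, DESeq2 size factors, no filter and leaving out each library of the fit. The number of the 10 genes called in KO RAS against WT RAS was 0 in the reported fit and 1 with the replicate block, 1 with DESeq2 and 1 with no filter, and the gene was Cldn4, with adjusted p values of 0.0400, 0.0446 and 0.0422, and of 0.0681 to 1 over the fits without 1 library. It stayed 0 in DKO RAS against WT RAS and for the difference between series in each alternative. Epithelial list genes called lower numbered 1 in each series, and 2 in the S6K1 series with the replicate block (Krt80 added). In the S6K1/S6K2 series they numbered 2 with DESeq2 (Cldn19 added), 3 with no filter (Cldn19 and Krt15 added) and 1 to 3 without 1 library. Those called higher numbered 15 to 21 without 1 library in the S6K1 series and 22 to 30 in the S6K1/S6K2 series, each within 1.5 times of the reported count, the lowest being without replicate 2 of WT EV and without replicate 2 of WT RAS respectively. The replicate block gave 26 and 29, where 18.1% and 15% of all tested genes were called higher. The cause of these changes was not tested.

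No RAS fold change of the 8 tested genes changed sign in any of 208 values under the alternatives (8 genes, 13 alternatives in each series), and 13 of these moved by more than the spread between replicates. Of the loss fold changes some near 0 changed sign. In KO RAS against WT RAS without 1 library these were Krt7 (lowest and highest value -0.69 to 0.084), Krt18 (-0.24 to 0.17) and Dsp (-0.067 to 0.45). In DKO RAS against WT RAS these were Krt8 (-0.36 to 0.33), Krt18 (-0.45 to 0.14), Ivl (-0.32 to 0.77) and Cldn4 (-0.52 to 0.37), the last also with the replicate block (-0.10). For the difference between series these were Krt18 (-0.41 to 0.21), Ivl (-0.021 to 1.1) and Epcam (-0.37 to 0.21), the last also with the replicate block (-0.0099), with DESeq2 size factors (-0.0028) and with no filter (-0.0065). Same-numbered libraries of DKO RAS and WT RAS correlated at 0.279, 0.454 and -0.04 in their deviations. The DKO embryos and their WT controls came from different mothers, so equal numbers do not mark littermates there. Epcam, Cdh1 and Krt14 are limited by their counts.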
